A study of Mus musculus with 5 samples.

Results

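The 9 genes of the fluid secretion machinery described here were followed in single-cell RNA-seq of mouse submandibular salivary gland: Chrm3, Slc12a2, Ano1, Clcn3, Kcnn4, Itpr3, Atp1b1, Kcnma1 and Bhlha15. They are 9 of the 31053 genes counted in the 7-day and tissue libraries and of the 32285 counted in the 11-day library, and all 9 were in both gene lists. They were picked by name, for their roles in saliva secretion, and not by a measured value, but with earlier results of these data known. The 5 libraries, 1 per group, came from C57BL/6 mice. Untreated salivary gland organoids (mSGOs) were collected at day 7 or at day 11. Other mSGOs received 7 Gy of photons or 7 Gy of protons on day 5 and were collected at day 7, and freshly isolated, non-irradiated gland cells formed the fifth library. The 7-day organoids and the gland were from animals 8-12 weeks old, an age that the labels do not give for the 11-day library. Per the labels, organoids were derived from 4 animals and grown in Matrigel with EGF, FGF2, insulin, dexamethasone, Y27632, R-spondin1 and Wnt3a, and the 11-day library was from another batch of animals and another run. Age of the culture, batch of animals, run and counting software therefore changed together between the 7-day and the 11-day libraries and cannot be told apart. All groups were sorted for cells that excluded propidium iodide, and the study used female mice only.

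Salivary acinar cells secrete fluid by moving chloride across the cell. Acetylcholine acts on the muscarinic receptor M3, IP3 receptors then release calcium from internal stores, and calcium opens a chloride channel on the luminal side and potassium channels that keep the cell's voltage favourable. Chloride is loaded from the blood side by a sodium, potassium and chloride cotransporter that runs on the sodium gradient of the sodium pump, and water follows through aquaporin 5. Striated and granular ducts then take back sodium and chloride, and they are rich in sodium pump.

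Counts are unique molecular identifiers (UMIs), added up over all barcodes that passed the filters in a library and given as CPM, that is, scaled to the same total in every library. With 1 library per group there was no test and no p-value. Intervals are at the 95% level and cover counting error only. A gene was called higher or lower past 1.5-fold between irradiated and control mSGOs and past 2-fold elsewhere, on the scale of log2(CPM + 1), when it had at least 50 UMIs over both libraries. The share of all such genes that was called is given beside the counts. The kept barcodes held 15837177 UMIs in the control 7-day library, 27128566 in the photon library, 24758398 in the proton library, 5925403 in the tissue library and 32102942 in the 11-day library. Median UMIs per barcode ran from 899 in the control 7-day library to 3026.5 in the 11-day library. At least 1% of UMIs came from Malat1, a nuclear RNA, in 98.8% of 11-day barcodes and in 8.96% to 16.0% of the barcodes of the other libraries. In the tissue library Mucl2, which encodes a secreted salivary protein, took 52.4% of UMIs by itself, so tissue CPM values of all other genes are low in proportion. Acinar markers matched the tissue label: all 10 genes of the list were detected there, at a summed 43014 CPM, against 8.16 to 31.0 CPM in the 4 organoid libraries. Libraries shared between 3 and 79 barcode sequences pairwise, at most 0.642% of either library.

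Bhlha15 was near 0 in all mSGO libraries, and Atp1b1 reached the highest summed CPM of these genes. The 250 bases before their starts are shown for that reason (RefSeq, GRCm38.p6, positions chr5:144190036-144190285 on the plus strand and chr1:164458356-164458605 on the minus strand). Capitals mark the E-box letters CANNTG, the core that basic helix-loop-helix factors such as the Bhlha15 protein bind; the letters read alike on both strands. The E-box letters occur 3 times before Bhlha15 and 0 times before Atp1b1, and 66.2% of 32851 promoter windows of this length hold them. Neither window holds CAGCTG (13.0% of windows) or CATATG (3.46%).
Bhlha15: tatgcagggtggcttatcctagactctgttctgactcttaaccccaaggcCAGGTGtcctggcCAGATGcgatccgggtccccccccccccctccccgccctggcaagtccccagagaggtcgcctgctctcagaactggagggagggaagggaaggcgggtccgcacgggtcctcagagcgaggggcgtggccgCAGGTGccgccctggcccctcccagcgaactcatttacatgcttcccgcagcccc
Atp1b1: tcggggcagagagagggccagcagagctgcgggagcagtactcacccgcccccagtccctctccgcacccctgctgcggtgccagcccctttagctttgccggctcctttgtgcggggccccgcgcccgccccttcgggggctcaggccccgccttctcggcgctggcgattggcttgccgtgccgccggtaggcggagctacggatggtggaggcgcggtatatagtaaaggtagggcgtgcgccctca

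The genes differ widely in length, which bears on the 11-day values. In RefSeq on GRCm38.p6, Chrm3 (ENSMUSG00000046159) lies at chr13:9875486-10361062, Ano1 (ENSMUSG00000031075) at chr7:144588549-144752026, Kcnma1 (ENSMUSG00000063142) at chr14:23292288-24005110 and Atp1b1 (ENSMUSG00000026576) at chr1:164437099-164458355, all on the minus strand. Clcn3 (ENSMUSG00000004319) lies at chr8:60910389-60983317 on the minus strand. Slc12a2 (ENSMUSG00000024597) at chr18:57878512-57946821, Kcnn4 (ENSMUSG00000054342) at chr7:24369826-24385212, Itpr3 (ENSMUSG00000042644) at chr17:27057002-27122223 and Bhlha15 (ENSMUSG00000052271) at chr5:144190286-144194441 are on the plus strand. By the GENCODE vM39 gene models, introns make up 98.7% of Chrm3, 97.7% of Kcnma1 and 96.0% of Ano1, but 15.9% of Bhlha15. The noncoding genes Gm47405 and Gm47404, which are in the gene lists too, overlap Chrm3 on the same strand, so counts there may be split. On the opposite strand, protein-coding genes overlap Clcn3 (Nek1), Itpr3 (Uqcc2), Atp1b1 (Nme7) and Bhlha15 (Tecpr1), and whether counting used the strand is not given in the sources used here.

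The muscarinic receptor was nearly silent in 7-day mSGOs and far higher in 11-day mSGOs, while the IP3 receptor gene Itpr3 was between 29.6 and 36.0 CPM in all mSGO libraries. Chrm3, the muscarinic M3 receptor, was at 0.821 CPM (13 UMIs) in control 7-day mSGOs, 0.922 CPM in photon mSGOs and 0.848 CPM in proton mSGOs. It was at 5.40 CPM (32 UMIs) in fresh tissue and at 104 CPM (3341 UMIs) in 11-day mSGOs. The 3 values of 7-day mSGOs have overlapping intervals, tissue stands above them and 11-day mSGOs stand above tissue. A Chrm3 UMI was found in 18.2% of 11-day barcodes, 1.93% of tissue barcodes and 0.200% of control 7-day barcodes. Itpr3, an IP3 receptor of the endoplasmic reticulum, was at 30.4 CPM in control, 32.1 CPM in photon, 29.6 CPM in proton, 36.0 CPM in 11-day and 7.26 CPM in tissue libraries. The 3 values of 7-day mSGOs could not be told apart by their intervals, and tissue was lowest. The other IP3 receptor genes, named here after their values were seen, were both called higher at day 11, as were 49.8% of all genes. Itpr1 was at 3.22 CPM in control 7-day and 81.6 CPM in 11-day mSGOs, and Itpr2 at 42.1 and 166 CPM. Both are over 300 kb long, and relative to all genes of that length their log2 ratios were 0.99 and -1.35.

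**Figure D1:**
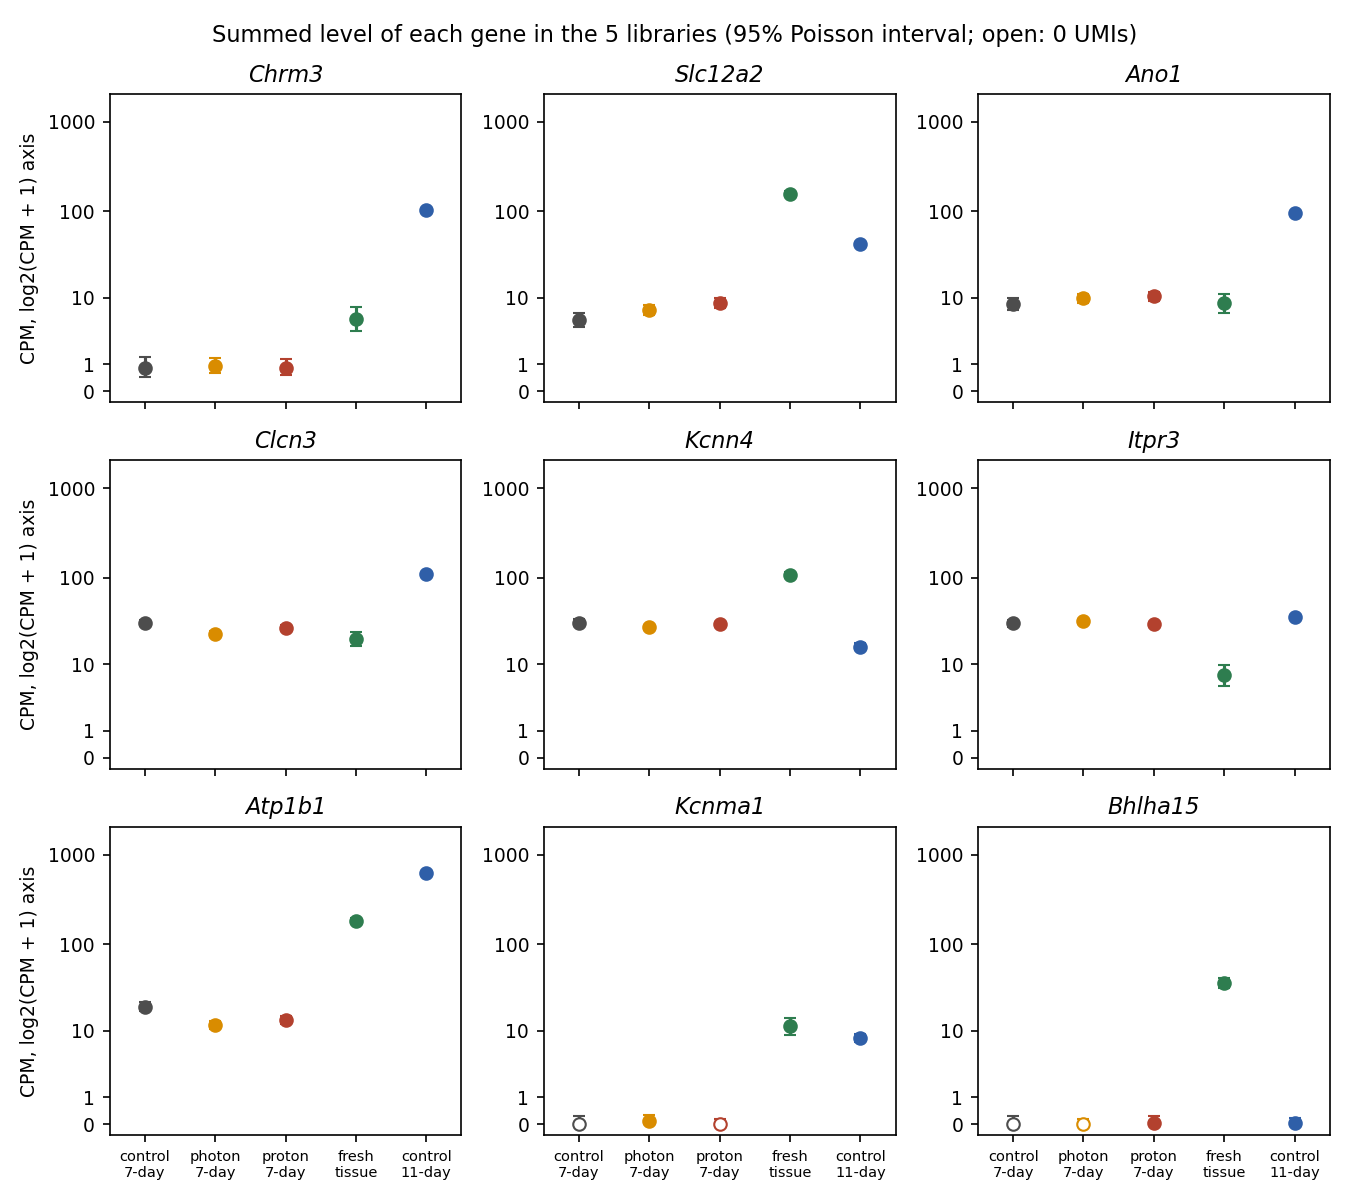
Summed CPM of each gene in the 5 libraries, on a log2(CPM + 1) axis; points are 1 library each, bars are 95% Poisson intervals and open points are 0 UMIs. Bhlha15 stands at 36.6 CPM in tissue and near 0 in all mSGO libraries, while Chrm3, Ano1, Clcn3 and Atp1b1 are highest in 11-day mSGOs.

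Of the chloride transporters among the 9 genes, Slc12a2 was highest in tissue, and Ano1 and Clcn3 were highest in 11-day mSGOs. Slc12a2 encodes the basolateral cotransporter NKCC1. Its level was 5.24 CPM in control, 7.00 CPM in photon and 8.60 CPM in proton mSGOs, 43.0 CPM in 11-day mSGOs and 158 CPM in tissue. Control and proton intervals do not overlap, the photon interval overlaps both, and 11-day and tissue values stand apart from all others. Ano1, the calcium-activated chloride channel TMEM16A, was at 8.46 CPM in control, 9.92 CPM in photon, 10.5 CPM in proton, 8.61 CPM in tissue and 95.8 CPM in 11-day libraries. The 4 lower values have overlapping intervals. Clcn3, a chloride and proton exchanger of intracellular membranes, was at 30.6 CPM in control, 22.6 CPM in photon, 27.1 CPM in proton, 20.3 CPM in tissue and 111 CPM in 11-day libraries. Only the 11-day level stands clear of all others.

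Of the potassium channels, Kcnn4 was highest in tissue, and Kcnma1 was present in tissue and 11-day mSGOs alike. Kcnn4, the intermediate-conductance calcium-activated potassium channel, was at 30.9 CPM in control, 27.2 CPM in photon, 29.5 CPM in proton, 16.3 CPM in 11-day and 106 CPM in tissue libraries. Its intervals overlap among the 7-day mSGOs, the 11-day level lies below them and the tissue level above. Kcnma1, the large-conductance calcium-activated potassium channel, had 0 UMIs in control, 2 in photon and 0 in proton mSGOs. It reached 11.3 CPM (67 UMIs) in tissue and 8.10 CPM (260 UMIs) in 11-day mSGOs, with overlapping intervals. The count of 0 among 6494 control barcodes allows a share of barcodes with a Kcnma1 UMI of up to 0.0462%, taken as 3 counts of the total, against 3.07% found in tissue and 2.17% in 11-day mSGOs.

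Atp1b1, the beta 1 subunit that takes the sodium pump to the membrane, was at 19.4 CPM in control, 11.6 CPM in photon, 13.5 CPM in proton, 182 CPM in tissue and 627 CPM in 11-day libraries. Both irradiated levels lie below the control and overlap each other. An Atp1b1 UMI was present in 71.1% of 11-day barcodes and 29.7% of tissue barcodes. Bhlha15 (MIST1), a transcription factor of mature secretory acinar cells, had 217 UMIs in tissue (36.6 CPM) but 0 in control, 0 in photon, 1 in proton and 1 in 11-day mSGOs. It was the only member of the 9 that was near 0 in all 4 mSGO libraries. Aqp5, the water channel of the same cells, was at 30.9 CPM in control, 9.18 CPM in photon, 8.12 CPM in proton, 13.5 CPM in 11-day and 199 CPM in tissue libraries.

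The irradiated libraries were compared with the control to see how the machinery stood 2 days after irradiation. Of the 6 members with enough UMIs, photon mSGOs had 0 called higher and 1 called lower, Atp1b1, against 4.33% and 2.09% of all genes. Proton mSGOs had 1 called higher, Slc12a2, and 0 called lower, against 3.9% and 2.36%. Chrm3, Kcnma1 and Bhlha15 had too few UMIs to be compared in either library. Both comparisons used the same control library. The median log2 ratio was -0.05 over the 6 members in each comparison and 0.09 over all genes tested in each.

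Atp1b1 was at 0.597 times its control level in photon mSGOs (interval 0.509 to 0.701) and at 0.698 times in proton mSGOs (0.596 to 0.818). Slc12a2 stood at 1.34 times control in photon mSGOs (1.03 to 1.75) and at 1.64 times in proton mSGOs (1.27 to 2.14). Clcn3 was at 0.739 times control after photons (0.655 to 0.834) and 0.886 times after protons (0.787 to 0.998). For Ano1 the ratios were 1.17 and 1.24, for Kcnn4 0.880 and 0.953, and for Itpr3 1.06 and 0.973. Between the irradiated libraries themselves, no member passed 1.5-fold; the widest gaps were in Slc12a2 and Clcn3, with log2 ratios of proton over photon of 0.26 and 0.25. The Atp1b1 call was lost among barcodes with at least 1% Malat1 (log2 ratio -0.46 in place of -0.70) and with a pseudocount of 10 CPM. The Slc12a2 call was lost with median-of-ratios scaling (0.54 in place of 0.62), with thinning and with that pseudocount.

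**Figure D2:**
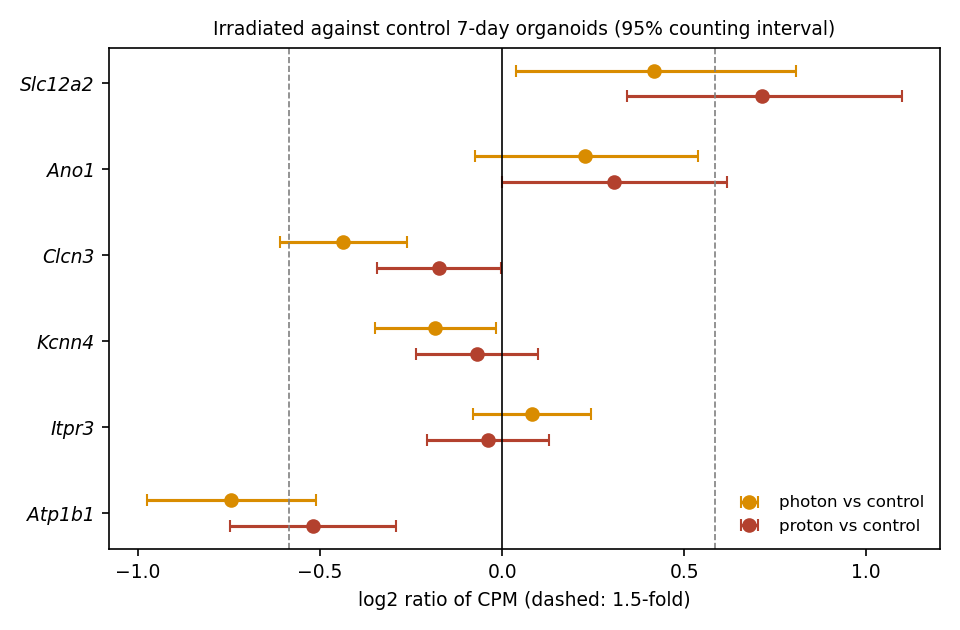
Log2 ratio of CPM of irradiated over control 7-day mSGOs for the 6 members with at least 50 UMIs; points are 1 library against 1, bars are 95% counting intervals and dashed lines are 1.5-fold. Slc12a2 lies to the right and Atp1b1 to the left in both comparisons, which share the control.

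Of the other 67 genes of a wider fluid secretion list, 37 could be compared after photons, with 0 called higher and 3 lower (4.33% and 2.09% of all genes; median log2 ratio 0.01). After protons 35 could be compared, with 0 higher and 2 lower (3.9% and 2.36% of all genes; median -0.02). Aqp5 had the lowest ratio of the list in both, with log2 ratios of -1.65 and -1.81. Lrrc8a, a subunit of the volume-regulated anion channel, came next at -0.90 and -0.74. The highest were Foxa1, a transcription factor of epithelial development (0.44), and Slc4a4, a sodium bicarbonate cotransporter (0.39), after photons. After protons they were the G protein subunit gene Gna11 (0.54) and the kinase gene Wnk1 (0.45), and none of these 4 passed 1.5-fold. Xbp1, a factor of the secretory pathway, was at 0.01 and -0.08.

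Between control mSGOs of 7 and 11 days, 6 of the 8 members with enough UMIs were called higher at day 11, where 49.8% of all genes were, and 0 were called lower (5.07% of all genes). The median log2 ratio over the 8 was 3.001, or 3.09 with Kcnma1 at its lower bound, and 0.99 over all genes tested. Chrm3 and Kcnma1 passed the minimum of UMIs only through the 11-day library. Chrm3 was 127 times higher (interval 74.0 to 238), Atp1b1 32.3 times (28.9 to 36.3), Ano1 11.3 times (9.53 to 13.6), Slc12a2 8.20 times (6.57 to 10.4) and Clcn3 3.61 times (3.28 to 3.98). Kcnma1 was at least 42.75-fold higher, with the control taken at a floor of 3 counts in its library. Itpr3 stood at 1.18 times (1.06 to 1.32), a direction that turned in 3 of 13 alternatives, and Kcnn4 at 0.528 times its 7-day level (0.466 to 0.598).

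Long genes with long introns may be inflated in the 11-day library by reads from introns. Its file header names software version 7.0.0, which counts intron reads by default, against 3.0.1 for the other libraries; which setting was used is not given in the sources used here. The median log2 ratio of all genes was 0.32 for genes under 10 kb, 0.72 for 10 to 30 kb, 1.31 for 30 to 100 kb, 2.11 for 100 to 300 kb and 3.30 over 300 kb. Relative to genes of their own length class, Atp1b1 (21.3 kb) was still 4.22 higher on the log2 scale, Chrm3 (485 kb) 2.55, Slc12a2 (69.6 kb) 1.51, Ano1 (163 kb) 1.25 and Clcn3 (83.8 kb) 0.51. Kcnma1 (725 kb) was then at -0.12, Itpr3 (67.9 kb) at -1.07 and Kcnn4 (19.2 kb) at -1.60. The ratio of Atp1b1 exceeded that of 99.7% of genes of its class, and the ratio of Kcnma1 that of 45.3%.

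**Figure D3:**
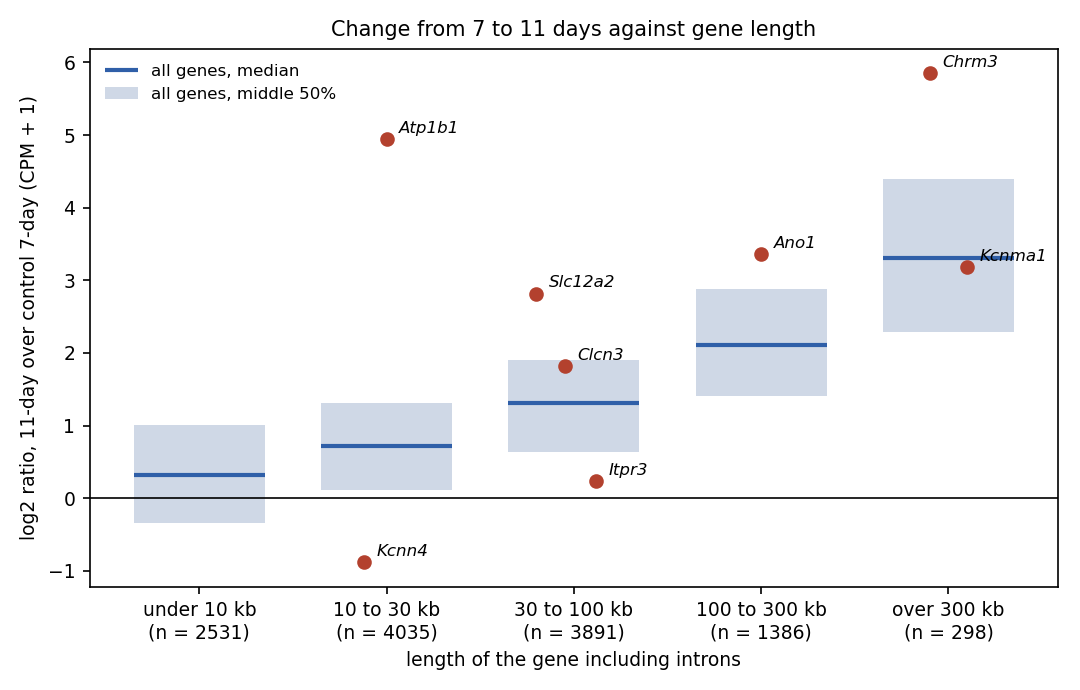
Log2 ratio of 11-day over control 7-day mSGOs (CPM + 1) by length of the gene with introns; blue lines and boxes are the median and middle 50% of all genes in each class, with n genes, and red points are the members. The class medians run from 0.32 to 3.30, Atp1b1 stands far above its class, and Kcnma1, which had 0 control UMIs so that its height depends on the added 1 CPM, lies at its class median.

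Within the 11-day library the levels of several members moved with the Malat1 share of the barcode. Chrm3 was at 84.0 CPM in the 3877 barcodes with a Malat1 share of 1% to 3%, at 119 CPM in the 4610 with 3% to 5% and at 141 CPM in the 811 with 5% to 10%. Ano1 went from 79.8 to 107 and 128 CPM over the same classes. Clcn3 had 106, 115 and 109 CPM, and Kcnn4 18.2, 13.6 and 15.2 CPM. The classes at the ends were small, with 115 barcodes under 1% and 71 at 10% or more. From the lowest to the highest class, Chrm3 went from 20.8 to 335 CPM, Ano1 from 49.5 to 141 CPM and Clcn3 from 88.6 to 370 CPM (229 to 566), while Kcnn4 went from 59.9 CPM to 0 UMIs. When both control libraries were held to barcodes with at least 1% Malat1, log2 ratios of day 11 over day 7 were 5.34 for Chrm3, 4.79 for Atp1b1, 3.15 for Ano1, 2.62 for Slc12a2 and 0.98 for Clcn3, which was then no longer called.

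Of the other list genes with enough UMIs, 21 of 43 were called higher and 3 lower at day 11 (49.8% and 5.07% of all genes), with a median of 0.98 that is near the 0.99 of all genes. Fxyd2, a regulator of the sodium pump, went from 19 to 6436 UMIs (log2 ratio 6.52), and Plcb1, a phospholipase C that makes IP3, from 2 to 2152 UMIs (5.92). The lowest ratio was that of Aqp3, a water and glycerol channel (-2.21). Aqp5 was lower too (-1.14), and Xbp1 at 0.68 did not pass 2-fold.

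In 11-day clusters of at least 50 barcodes, made without these genes, the CPM of Chrm3, Ano1, Slc12a2 and Atp1b1 was highest in cluster 6. At equal depth only the Chrm3 interval there lay clear of that of cluster 5. Cluster 6, a granular or striated duct-like cluster of 423 barcodes in which 4 of the 8 duct markers were at least 2-fold above the rest, had Chrm3 at 373 CPM (interval 347 to 401), Atp1b1 at 1254 CPM (1206 to 1304), Ano1 at 165 CPM (148 to 184) and Slc12a2 at 83.9 CPM (71.7 to 97.6). It held 22.4% of the library's Chrm3 UMIs. After thinning to 1000 UMIs, Chrm3 was left in 27.4% of cluster 6 (23.2% to 31.9%; 66.2% unthinned) and 13.2% of cluster 5 (10.9% to 15.8%; 26.6% unthinned), whose median depths were 4096 and 2449 UMIs. Chrm3 was also left in 28.6% of the 14 thinned barcodes of cluster 10 (8.39% to 58.1%), an interval that overlaps that of cluster 6. Atp1b1 was left in 67.1% of cluster 6 (62.4% to 71.6%) and 59.5% of cluster 5 (56.0% to 63.0%). Ano1 was left in 11.3% of cluster 6 (8.49% to 14.8%) and 12.6% of cluster 5 (10.3% to 15.1%), and Slc12a2 in 5.91% of cluster 6 (3.86% to 8.60%) and 4.86% of cluster 4 (3.82% to 6.08%). The intervals of Atp1b1, Ano1 and Slc12a2 overlap, that of Atp1b1 only between 62.4% and 63.0%. Overlap does not show equal levels, and the differences were not tested. Among clusters of at least 50 barcodes, Kcnn4 peaked at 82.6 CPM (63.3 to 106) in cluster 9, a cycling-like cluster of 124 barcodes. Atp1b1 was lowest there among the same clusters, at 71.9 CPM. The acinar markers Dcpp1 and Dcpp3 were also among the 10 leading genes of that cluster, and their part in the result was not tested. Kcnma1 was at 31.4 CPM (20.9 to 45.4) in cluster 7, a myoepithelial-like cluster of 309 barcodes, and at 48.1 CPM on 4 UMIs in cluster 10. Thinned shares with a Kcnma1 UMI were 2.30% in cluster 7 (0.931% to 4.69%) and 2.36% in cluster 6 (1.14% to 4.30%), so it was not set apart in cluster 7. Clcn3 was highest, at 397 CPM (273 to 558), in cluster 10, an unnamed group of 104 barcodes whose median depth was 759 UMIs and whose Malat1 share had a median of 11.0%, and Kcnn4 had 0 UMIs there. The single Bhlha15 UMI lay in cluster 6.

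**Figure D4:**
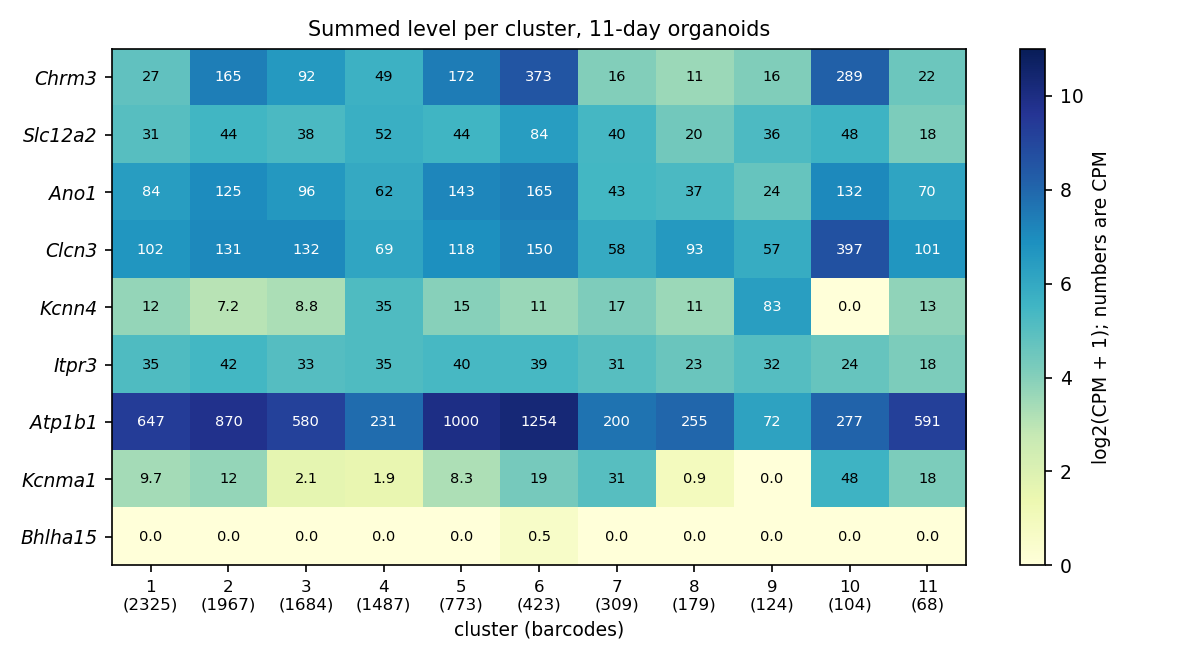
CPM of each member in the 11-day clusters with at least 50 barcodes; colour is log2(CPM + 1), printed numbers are CPM and barcodes are in parentheses. Chrm3 reaches 373 CPM in cluster 6 and Kcnn4 82.6 CPM in cluster 9.

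Fresh tissue was set beside control 7-day mSGOs as the reference for the mature gland. Of the 8 members with enough UMIs, 5 were called higher in tissue, where 7.22% of all genes were, and 1 was called lower, where 57.8% were. The median log2 ratio over the 8 was 2.46, against -1.22 over all genes tested. Bhlha15 and Kcnma1 passed the minimum only through tissue. Slc12a2 was 30.1 times higher in tissue (interval 24.0 to 38.1), Atp1b1 9.41 times (8.28 to 10.7) and Kcnn4 3.44 times (3.05 to 3.88). Bhlha15 was at least 193-fold higher and Kcnma1 at least 59.7-fold, both against a floor of 3 counts in the control library. Itpr3 was 4.19 times lower (3.06 to 5.86), Clcn3 stood at 0.661 times and Ano1 at 1.02 times its mSGO level. In a bulk sum, fewer cells of a type and less RNA per cell cannot be told apart.

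These ratios rest on the scaling, since the 18 genes that took over 1% of UMIs in any library made up 76.4% of the tissue library and 8.70% to 14.1% of the others. With those genes left out of the totals, the median of all genes moved from -1.22 to 0.46. With the 18 genes left out, Ano1 (1.80) and Clcn3 (1.25) also passed 2-fold and Itpr3 (-0.19) no longer did. Slc12a2, Atp1b1 and Kcnn4 stayed above their 7-day level under each of the 12 alternatives run. Bhlha15 and Kcnma1 did too, but they had 0 UMIs over all deposited control barcodes, so their direction could not turn. Of the other list genes 11 of 38 were called higher and 18 lower (7.22% and 57.8% of all genes), with a median of -0.80. The highest were Fxyd2 (log2 ratio 8.27) and Atp2a3, the SERCA3 calcium pump, with 409 UMIs against 0. The lowest were Aqp3, with 0 UMIs against 3277, and the bicarbonate cotransporter Slc4a7 (-3.27). Aqp5 was higher (2.65), while Xbp1 (0.99) did not pass 2-fold.

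Levels of the members varied between tissue clusters. Cluster 5, with 118 barcodes and 38.5% of the UMIs, held 63.3% of Slc12a2, 59.4% of Bhlha15, 56.4% of Kcnn4, 78.4% of Ano1 and 64.2% of Kcnma1 UMIs. Its levels were 259 CPM of Slc12a2 (239 to 281), 156 CPM of Kcnn4 (140 to 173), 56.5 CPM of Bhlha15 (47.2 to 67.2) and 17.5 CPM of Ano1 (12.5 to 23.9). Its leading genes were Fam13a, Epha5, Kif21a, Prlr and Smgc, and it was left unnamed: 2 acinar, 3 fibroblast and 3 Schwann cell markers were at least 2-fold above the rest. Cluster 6, granular or striated duct-like (94 barcodes; 7 of 8 granular or striated duct, 4 luminal duct and 4 Ascl3 duct markers at least 2-fold above the rest), had Atp1b1 at 983 CPM (851 to 1128), Slc12a2 at 420 CPM (336 to 519) and Kcnma1 at 68.4 CPM (37.4 to 115), with Kcnn4 at 24.4 CPM and 0 UMIs of Ano1. After thinning each barcode to 1000 UMIs, a Kcnma1 UMI was left in 4.35% of cluster 5 (1.43% to 9.85%) and 2.35% of cluster 6 (0.286% to 8.24%), which overlap and run against its CPM, so no order of these clusters was read for Kcnma1.

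**Figure D5:**
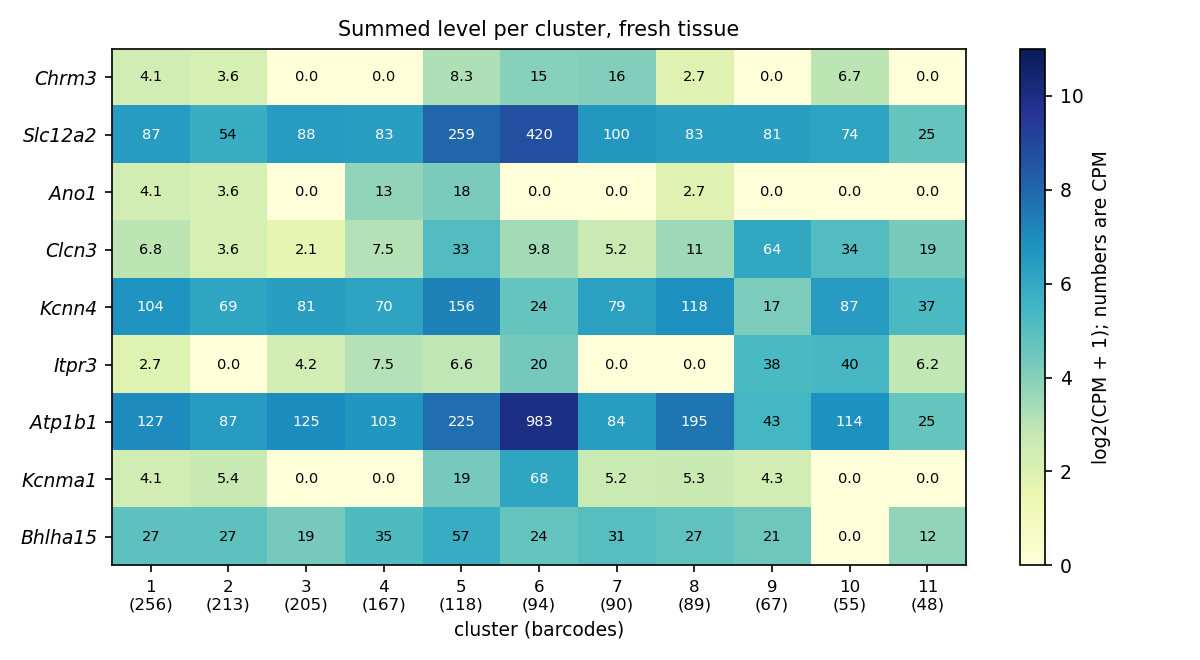
CPM of each member in the 11 tissue clusters; colour is log2(CPM + 1), printed numbers are CPM and barcodes are in parentheses. By CPM, Kcnn4 is highest in cluster 5 (156 CPM) and Atp1b1 in cluster 6 (983 CPM).

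A low level of several members was spread over all tissue clusters. In cluster 9, endothelial-like (67 barcodes, 7 of 7 endothelial markers), which should lack Bhlha15, that gene was at 21.4 CPM (5 UMIs), Slc12a2 at 81.2 CPM and Kcnn4 at 17.1 CPM (4 UMIs). After thinning each barcode to 1000 UMIs, a Slc12a2 UMI was left in 31.3% of cluster 5 (interval 23.0% to 40.6%; 77.1% unthinned), 17.6% of cluster 6 (10.2% to 27.4%; 21.3% unthinned) and 1.49% of cluster 9 (0.0378% to 8.04%; 22.4% unthinned). The shares of clusters 5 and 6 overlap and run against their CPM, so no order of these clusters was read for Slc12a2. Thinning left out 3, 9 and 0 barcodes of clusters 5, 6 and 9, and the median depths before thinning were 8192.5, 1654 and 3334 UMIs. For Bhlha15 the thinned shares were 5.22% in cluster 5 (1.94% to 11.0%) and 2.35% in cluster 6, and 0 of 67 barcodes in cluster 9 (0% to 5.36%). These intervals overlap, and so do those of its CPM in clusters 5, 6 and 9, so no order of these clusters was read for Bhlha15. Its level in cluster 5, 56.5 CPM (47.2 to 67.2), lay above that of the whole library, 36.6 CPM (31.9 to 41.8). The library total includes cluster 5. Kcnn4 was left in 14.8% of cluster 5 (8.85% to 22.6%), 2.35% of cluster 6 (0.286% to 8.24%) and 2.99% of cluster 9 (0.364% to 10.4%). The Kcnn4 share of cluster 6 was thus no higher than that of cluster 9. The interval of cluster 5 overlaps those of all other clusters except cluster 6 and cluster 11 (0% to 7.40%). Atp1b1 was left in 34.1% of cluster 6 (24.2% to 45.2%) and 21.7% of cluster 5 (14.6% to 30.4%), which overlap.

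Against tissue, 11-day mSGOs had 5 of 9 members called higher (80.5% of all genes) and 3 called lower (4.43% of all genes), with a median log2 ratio of 1.78 beside 1.97 over all genes tested. Chrm3 and Itpr3 passed the minimum of UMIs only through the 11-day library and Bhlha15 only through tissue. Slc12a2 was 3.67 times lower at day 11 (interval 3.37 to 3.99), Kcnn4 6.52 times lower (5.80 to 7.34) and Bhlha15 1176 times lower on a single UMI (209 to 46648). Those 3 were lower under each of the 13 alternatives run. Chrm3 was 19.3 times higher (13.6 to 28.2), Ano1 11.1 times (8.45 to 14.99), Clcn3 5.46 times (4.55 to 6.60), Itpr3 4.96 times (3.66 to 6.89) and Atp1b1 3.44 times (3.23 to 3.66). None of these 5 was still called relative to genes of like length, where Chrm3 was at 0.455 and Atp1b1 at -0.02. Atp1b1 also turned to -0.39 with median-of-ratios scaling and to -0.17 with totals that leave out the 18 dominant genes. Kcnma1 stood at 0.716 times its tissue level (0.546 to 0.952), and at a log2 ratio of -4.02 relative to genes of like length.

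Among the other list genes 29 of 46 were called higher and 9 lower at day 11 (80.5% and 4.43% of all genes), with a median of 1.61, or 1.75 with genes at 0 in a library taken at their bounds. The highest were Slc4a4 (5.85, on 3 tissue UMIs) and Aqp3, with 1412 UMIs against 0, and the lowest were Atp2a3 (-5.70) and Car2, a carbonic anhydrase (-4.16). Aqp5 was lower (-3.79), and Xbp1 (-0.31) did not pass 2-fold.

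The pattern of each member over clusters was compared with that of 5224 other genes over 27 clusters, 6 of control 7-day mSGOs, 11 of 11-day mSGOs and 10 of tissue, centred within the library. The clusters of a library share its cells and depth, so the correlations are descriptions. Atp1b1 was most like Cyp2f2 (r = 0.901), Tfcp2l1 (0.817) and Bckdha (0.733), and Slc12a2 most like Fermt1 (0.743), Abcc1 (0.720) and Plcd3 (0.680). Kcnn4 was most like Fkbp11 and Ifrd2 (0.843 each) and Nudt22 (0.826). Clcn3 was nearest to Chd7 (0.920), Nktr (0.908) and Zcchc7 (0.896), and Itpr3 to Fnbp4 (0.903), Ggnbp2 (0.892) and Rbm27 (0.888). Among the members themselves, Slc12a2 and Atp1b1 (0.597) and Clcn3 and Itpr3 (0.520) had the highest values, and Clcn3 and Kcnn4 the lowest (-0.492). The other 4 members had too few UMIs in 2 of these libraries.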

How the data were processed

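Single-cell RNA-seq was measured in 5 libraries, 1 per group, and groups were taken from the labels. The authors deposited matrices of whole-number UMI counts per gene and barcode; the deposited counts were used as they stand. The submitters' processing notes name Cell Ranger 5 and mm10, the study's methods name GRCm39, and the file headers give software versions 3.0.1 (7-day and tissue) and 7.0.0 (11-day). Coordinates are therefore RefSeq GRCm38.p6 positions and not a claim on the build used for counting. Gene lengths came from GENCODE vM39 by Ensembl ID (30144 of 31053 and 31674 of 32285 IDs matched).

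Barcodes with at least 200 genes and at most 5% mitochondrial UMIs were kept. Doublets were removed with Scrublet (scanpy 1.11.5) at 0.8% per 1000 barcodes; in 4 libraries its own threshold called fewer than 0.5% of barcodes, so that barcodes were instead dropped from the top score downwards until this rate was met; in the photon library 1355 were called. This kept 6494 control, 16929 photon, 15325 proton, 1402 tissue and 9484 11-day barcodes; 11597 tissue barcodes had under 200 genes. The study's limit of 2500 genes was run both ways as an alternative. CPM were computed with the whole library total, and comparisons with the 11-day library used the 30406 genes in both lists. Intervals are exact Poisson for CPM, conditional exact binomial for ratios and Clopper-Pearson for shares, at 95%. Ratios printed with an interval carry no pseudocount, and log2 ratios a pseudocount of 1 CPM. UMIs of a library are not biological replicates. Clusters were made within each library without the fluid secretion list (2000 variable genes, 30 components, 15 neighbours, Leiden resolution 0.8). Scripts were tested on simulated data.

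Named genes were all 9 members, Aqp5 and Xbp1, the 2 highest and 2 lowest of the other list genes per comparison, and for each member with at least 200 UMIs in 2 libraries the 3 genes most like it; some genes that this rule names are not reported here. Other genes are named as overlapping genes, as IP3 receptor genes set beside Itpr3 (after their values were seen), or as markers, leading genes of a cluster or dominant genes. Members, lists and markers were chosen with earlier results of these data known.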

Additional observations from a re-analysis of the deposited data

Results flagged for a closer look

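The filters left 12145 tissue barcodes with 13867013 UMIs out of the comparisons above, nearly all of them for holding under 200 genes. The 657 left-out barcodes of the control 7-day library were of another kind: 0 held under 200 genes, 378 were doublets and the others exceeded the mitochondrial limit. In the left-out tissue barcodes 5 members were above their level in those control barcodes, with intervals that do not overlap. The share of all genes that meet this rule was not computed, so the count is not a result about the members. Slc12a2 was at 183.2 CPM against 8.40 CPM, Atp1b1 at 241.7 CPM against 16.8 CPM and Kcnn4 at 58.34 CPM against 22.4 CPM. Kcnma1 was at 10.10 CPM and Bhlha15 at 26.47 CPM, both against 0 UMIs in the control. Groups of 1 library cannot show a library that stands apart from its replicates, and no member had photon and proton ratios of opposite sign with both intervals away from 0.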

How the results depend on the processing

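Of 529 member ratios computed under alternatives, 500 kept their direction. Part of this was fixed in advance, since another pseudocount cannot turn a ratio, nor can rescaling where a library has 0 UMIs. The total also includes members with fewer than 50 UMIs. The count of members lower after photons (1) became 0 among barcodes with at least 1% Malat1 and with a pseudocount of 10 CPM, and 2 with barcodes thinned to 1000 UMIs. The count higher after protons (1) became 0 with thinning, a pseudocount of 10 CPM or median-of-ratios scaling. At day 11 against day 7 the count lower (0) became 1 with at most 2500 genes, thinning or median-of-ratios scaling and 2 relative to genes of like length, where Kcnma1 turned to -0.12. The count higher (6) fell under some settings. Relative to genes of like length Clcn3 (0.51) and Kcnma1 lost the call, and Clcn3 also lost it with at least 1% Malat1. In tissue against day 7 the count lower (1) became 0 with at least 1% Malat1, median-of-ratios scaling or totals without dominant genes and 2 with at least 2500 genes or thinning, and the count higher (5) became 3 with thinning and 7 with totals without dominant genes, and lay between 4 and 6 under the others. At day 11 against tissue the count higher (5) became 2 with at least 1% Malat1, median-of-ratios scaling or totals without dominant genes and 0 relative to genes of like length. Atp1b1 turned there to -0.39 with median-of-ratios scaling, -0.17 without dominant genes and -0.0164 relative to genes of like length, and Itpr3 to -0.0698 in the last. These settings move all genes, and the share of all genes called under each is not given here. The counts are therefore not results about the members themselves. Thinning tests fewer genes, and a larger pseudocount shrinks ratios of low genes by construction. Otherwise the cause was not tested. The cluster with the highest level was matched for all 7 members with at least 50 tissue UMIs at Leiden resolutions 0.4 and 1.2 and with at least 1000 UMIs per barcode, although at 0.4 that of Clcn3 had merged with other barcodes and shared 50.8% of them. No paired analysis was possible because each group has 1 library.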
